A study of Arabidopsis thaliana with 148 samples.

Results

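The nuclear genes described here encode the photosystem subunits and the light-harvesting antenna proteins of Arabidopsis thaliana, together with 3 electron carriers. They were taken by name from a list and not by a cut on measured values, though earlier results of these data were known. They number 41 of the 38194 genes counted. The list holds 6 antenna genes of photosystem I (PSI), namely LHCA1 (AT3G54890), LHCA2 (AT3G61470), LHCA3 (AT1G61520), LHCA4 (AT3G47470), LHCA5 (AT1G45474) and LHCA6 (AT1G19150). It holds 10 antenna genes of photosystem II (PSII), namely LHCB1.1 (AT1G29920), LHCB1.2 (AT1G29910), LHCB1.3 (AT1G29930), LHCB1.4 (AT2G34430), LHCB1.5 (AT2G34420), LHCB4.1 (AT5G01530), LHCB4.2 (AT3G08940), LHCB4.3 (AT2G40100), LHCB5 (AT4G10340) and LHCB6 (AT1G15820). The 12 subunits of PSI are PSAD1 (AT4G02770), PSAD2 (AT1G03130), PSAE1 (AT4G28750), PSAE2 (AT2G20260), PSAF (AT1G31330), PSAG (AT1G55670), PSAH1 (AT3G16140), PSAH2 (AT1G52230), PSAK (AT1G30380), PSAL (AT4G12800), PSAN (AT5G64040) and PSAO (AT1G08380). The 10 subunits of PSII are PSBO1 (AT5G66570), PSBO2 (AT3G50820), PSBP1 (AT1G06680), PSBQ1 (AT4G21280), PSBQ2 (AT4G05180), PSBR (AT1G79040), PSBW (AT2G30570), PSBX (AT2G06520), PSBY (AT1G67740) and PSBTN (AT3G21055). The carriers are the plastocyanins PETE1 (AT1G76100) and PETE2 (AT1G20340) and the Rieske protein PETC (AT4G03280). All 41 passed the filter on low counts in every comparison.

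The study asked how a short heat stress changes the transcriptome and the translatome, and whether the response depends on the time of day. Every library came from seedlings of genotype p35S:HF-RPL18, in which the 35S promoter drives an epitope-tagged ribosomal protein L18, so the heated and the control seedlings all carried the tag. Seedlings were grown on MS medium with sucrose in 12 h light and 12 h dark at 22 °C, moved to constant light from day 11, and harvested on day 13. Time is given as zeitgeber time (ZT, in hours), and ZT60 to ZT69 is the night of the earlier light cycle. In the time course, heated seedlings had 1 h at 37 °C ending at ZT48, ZT51, ZT54, ZT57, ZT60, ZT63, ZT66 or ZT69, and control seedlings stayed at 22 °C and were sampled at the same times and at ZT72. In the recovery experiment, seedlings were heated for 1 h until ZT54, sampled after 0, 1, 3 and 6 h back at 22 °C (ZT54, ZT55, ZT57 and ZT60), and set against unheated seedlings of the same times. From each condition, ribosome-bound mRNA was pulled down through the tag (TRAP) and total polyadenylated mRNA was prepared (total). There were 148 libraries in 50 groups, 48 groups of 3 libraries and 2 control groups of 2 (total at ZT57 and TRAP at ZT60, both in the time course). The labels do not say whether replicates were separate cultures, so the p-values measure the spread between these libraries only.

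In plants the antenna proteins bind most of the chlorophyll and pass excitation energy to the reaction centres. Their genes are encoded in the nucleus, translated in the cytosol and imported into the plastid, while most reaction-centre proteins are encoded in the plastid. LHCB genes are among the classic outputs of the plant circadian clock: in Arabidopsis their transcripts rise around dawn, reach a crest in the morning and fall through the night, and this goes on in constant light.

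Upstream sequences of 4 genes are shown, because LHCB1.5, LHCA4, LHCB4.2 and LHCB1.1 had the smallest p for a heat effect that varied with the time of day in total mRNA. Each is the 250 bases before the annotated start of the gene in RefSeq's TAIR10.1 annotation, read 5′ to 3′ on the gene's strand. The windows are chr2:14523569-14523818 on the minus strand for LHCB1.5, chr3:17495034-17495283 on the minus strand for LHCA4, chr3:2717307-2717556 on the plus strand for LHCB4.2 and chr1:10475970-10476219 on the minus strand for LHCB1.1. Capitals mark matches, on either strand, to 5 motifs spelled out after the sequences.
LHCB1.5: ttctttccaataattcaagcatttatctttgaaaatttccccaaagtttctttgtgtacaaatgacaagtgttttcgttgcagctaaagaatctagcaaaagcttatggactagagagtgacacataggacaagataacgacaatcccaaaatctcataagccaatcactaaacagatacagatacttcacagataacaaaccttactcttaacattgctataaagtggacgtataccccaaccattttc
LHCA4: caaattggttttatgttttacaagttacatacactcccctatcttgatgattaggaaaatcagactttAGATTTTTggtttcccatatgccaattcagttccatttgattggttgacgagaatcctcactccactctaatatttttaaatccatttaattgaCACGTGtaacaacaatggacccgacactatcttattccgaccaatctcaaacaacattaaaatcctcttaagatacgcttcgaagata
LHCB4.2: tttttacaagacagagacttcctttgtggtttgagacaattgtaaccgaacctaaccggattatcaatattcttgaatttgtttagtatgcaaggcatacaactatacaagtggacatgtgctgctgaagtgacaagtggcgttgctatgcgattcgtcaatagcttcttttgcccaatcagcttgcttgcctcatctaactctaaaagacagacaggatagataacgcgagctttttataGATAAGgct
LHCB1.1: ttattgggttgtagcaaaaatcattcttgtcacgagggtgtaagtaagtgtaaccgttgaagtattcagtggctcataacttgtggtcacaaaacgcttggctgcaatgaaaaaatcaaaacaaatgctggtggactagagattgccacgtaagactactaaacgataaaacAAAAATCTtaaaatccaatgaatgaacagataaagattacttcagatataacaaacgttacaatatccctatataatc

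Of the 27443 promoters searched, the G-box CACGTG was in 6.49%, the CCA1-binding site AAAAATCT in 6.69%, the evening element AAAATATCT in 2.36%, the I-box GATAAG in 12.3% and the heat shock element GAANNTTC in 9.55%. Among the 41 genes, 8 held the G-box (LHCA4, LHCB4.1, LHCB6, PSAE2, PSAH2, PSBQ1, PSBQ2 and PSBTN), 5 the CCA1-binding site (LHCA4, LHCB1.1, LHCB1.4, PSAN and PSAO), 1 the evening element (LHCA5), 10 the I-box and 1 the heat shock element (LHCB5). In the sequences shown, LHCA4 had an AGATTTTT match that is the CCA1-binding site on the other strand and a G-box nearer the start, LHCB1.1 had the CCA1-binding site, and LHCB4.2 had an I-box just before the start. None of these letters were in the window of LHCB1.5. A match describes the letters only.

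Library totals were 1396305 to 13706459 counts in the time course (n = 100) and 3080248 to 8745785 counts in the recovery experiment (n = 48). The heat-induced chaperone gene HSP101, a check of the labels, had 5664 to 10291 counts per 1e6 counts (CPM) in heated and a median of 13.4 CPM in control TRAP libraries, and 2556 to 4132 CPM in heated and a median of 9.67 CPM in control total libraries. The highest TRAP controls had 81.0, 79.5 and 78.9 CPM (library 2 at ZT54, 1 at ZT48 and 2 at ZT69), and the highest total control had 181 CPM (library 2 at ZT54); without that total library the count of genes with a time-dependent heat effect in total mRNA was 9 in place of 10. Trimmed-mean scaling factors were 0.583 to 0.737 in heated against 1.34 to 1.68 in control TRAP libraries, and 0.583 to 0.839 in heated against 1.06 to 1.62 in control total libraries. Values below are CPM after this scaling, so a rise means a rise relative to the bulk of other genes. As a plain share of all counts the 41 genes went the other way, with 8.34% ± 1.72 in heated (SD, n = 24) and 12.4% ± 3.45 in control (n = 26) TRAP libraries, and 5.53% ± 1.19 in heated and 8.0% ± 2.2 in control total libraries. Root markers were also lower in heated libraries: their summed level over 9 genes was 18.8 to 36.9 scaled CPM in heated and 31.2 to 52.4 in control total libraries, and 1.45 to 8.49 in heated and 3.81 to 9.01 in control TRAP libraries, with no marker at 0 throughout. Over all times 6 of the 9 fell and 1 rose in total mRNA, and 1 of 7 tested fell in TRAP mRNA. In whole seedlings, fewer cells of a type and less RNA per cell cannot be told apart, and the part of root RNA in the photosystem results was not tested.

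**Figure D1:**
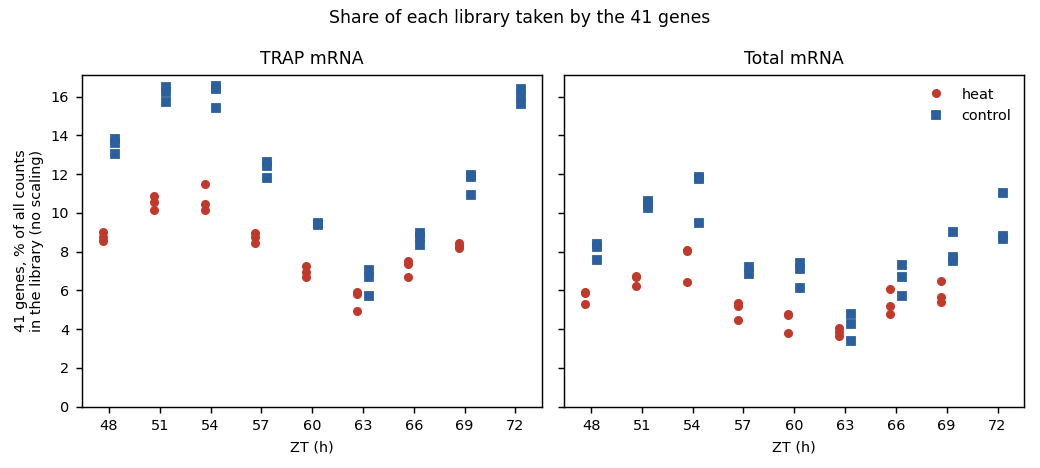
Share of all counts in each library (percent, no scaling) taken by the 41 genes, at each zeitgeber time in hours, heated libraries as red circles and control libraries as blue squares, TRAP mRNA on the left and total mRNA on the right. The heated TRAP libraries average 8.34% and the control ones 12.4%, and they come closest at ZT63.

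Heat raised nearly all photosystem and antenna transcripts when the 8 times were averaged. In TRAP mRNA 40 of 41 rose, with a median log2 change of 0.62 over the 41 genes against -0.09 over all genes tested, and in total mRNA 35 rose and 1 (LHCA6) fell, with a median of 0.43 against -0.08. Of all genes tested, 83.6% were called in TRAP and 80.7% in total mRNA, 38.1% and 36.9% as rising and 45.5% and 43.9% as falling. The test was edgeR's quasi-likelihood test with Benjamini-Hochberg adjustment at 0.05. The directions depend on the scaling: with total counts as the only scaling, 2 rose and 38 fell in TRAP mRNA and 2 rose and 36 fell in total mRNA, with the median over all genes at -1.26 and -1.04. The median of the 41 genes lay 0.71 log2 above that of all genes in TRAP under both scalings, and 0.51 and 0.52 above in total mRNA. A change of scaling moves all genes nearly alike, so this distance could hardly change and does not test the directions.

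The PSII antenna gene LHCB1.5, one of 5 genes for the most abundant trimeric antenna protein, changed most. Its log2 change was 1.42 ± 0.042 (SE) in TRAP and 1.19 ± 0.046 in total mRNA. LHCB4.2, a gene for the minor antenna protein CP29, changed by 1.14 ± 0.041 and 0.96 ± 0.042. The other 8 PSII antenna genes rose by 0.29 to 0.93 in TRAP mRNA. In total mRNA LHCB1.3 and LHCB4.3 did not pass the test, at -0.01 and 0.05, and LHCB1.1 rose by 0.19.

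Among the PSI antenna genes, LHCA1 to LHCA4, which encode the belt of 4 antenna proteins bound to PSI, rose by 0.89 to 1.03 in TRAP mRNA and by 0.68 to 0.92 in total mRNA. LHCA5 and LHCA6, which encode scarce relatives that join PSI to the NDH complex, did not follow them. LHCA5 rose by 0.13 ± 0.038 in TRAP mRNA and was at 0.04 in total mRNA, where it did not pass the test. LHCA6 fell by 0.13 ± 0.044 on the log2 scale in total mRNA (adjusted p = 0.00763), a call lost without replicate 1 (adjusted p = 0.109) and without replicate 3 (adjusted p = 0.0747), and was at -0.02 in TRAP mRNA, where it did not pass. Its total level at ZT54 was 50.3, 63.8 and 61.3 scaled CPM in heated and 58.5, 53.9 and 58.4 in control seedlings. These ranges overlapped.

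All 12 PSI subunit genes rose in both kinds of mRNA, from 0.45 (PSAD2) to 0.88 (PSAL) in TRAP mRNA and from 0.21 (PSAH2) to 0.62 (PSAE2) in total mRNA. PSAL and PSAH belong to the side of PSI where mobile LHCII docks, and PSAE and PSAD form the stromal ridge that binds ferredoxin. All 10 PSII subunit genes rose in TRAP mRNA and 8 of 10 in total mRNA, where PSBX (0.02) and PSBTN (-0.03), both small membrane or lumenal subunits, did not pass the test. PSBO2, which encodes a form of the 33-kDa manganese-stabilising protein of the oxygen-evolving complex, rose by 1.39 ± 0.037 in TRAP and by 1.1 ± 0.042 in total mRNA. At ZT51 it had 3746, 3882 and 4025 scaled CPM in heated and 1375, 1380 and 1417 in control TRAP libraries, and 1672, 1928 and 1881 in heated and 783, 760 and 746 in control total libraries. Every heated library lay above every control. The other extrinsic subunit genes of that complex, PSBO1, PSBP1, PSBQ1 and PSBQ2, rose by 0.62, 0.67, 0.85 and 0.53 in TRAP mRNA. The carriers PETE2 and PETC rose by 0.86 and 0.80 in TRAP and by 0.60 and 0.57 in total mRNA. PETE1, the minor plastocyanin gene, rose by 0.33 in TRAP and by 0.13 in total mRNA, a call lost with relative-log-expression scaling (0.07) and with DESeq2 (0.08). This call in total mRNA was also lost without replicate 1 (0.104) and without replicate 2 (0.097).

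The smallest rises came from LHCA5, PSBTN and PSBX in TRAP mRNA and from PETE1 and PSBY in total mRNA. The call of PSBTN in TRAP mRNA was lost without replicate 1 (0.087). Group means of LHCA5 in TRAP mRNA were 103 to 144 scaled CPM in heated and 89.7 to 134 in control seedlings, those of PSBTN were 769 to 1180 and 737 to 1072, and those of PSBX were 884 to 1187 and 767 to 998. In total mRNA, group means of PETE1 were 104 to 163 in heated and 96.3 to 157 in control seedlings, and those of PSBY were 261 to 452 and 214 to 401. In all of these the heated and control ranges over the day overlapped, and the calls rest on the average over 8 times. Such ranges also hold the daily rhythm, and those of LHCB1.5 in TRAP mRNA overlapped too (3216 to 13478 and 527 to 7228). At single times the rise was called at 1 time for LHCA5, 2 for PSBX and 0 for PSBTN in TRAP mRNA. In total mRNA it was called at 0 times for PETE1 and for PSBY.

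The size of the heat effect depended on the time of day for 9 antenna genes and 1 PSI subunit gene. The test of equal effects at the 8 times, with 7 degrees of freedom, called 10 of the 41 genes in TRAP and 10 in total mRNA, against 7.04% and 3.61% of all genes tested. They were the same 10 genes: LHCA1, LHCA3, LHCA4, LHCB1.1, LHCB1.2, LHCB1.4, LHCB1.5, LHCB4.2, LHCB6 and PSAD2. That is 9 of 16 antenna genes and 1 of 12 PSI subunits, while none of the 10 PSII subunits or 3 carriers was called. The difference between these groups of genes was not tested. All 10 had their largest effects at ZT63 or ZT66, in the night of the earlier light cycle, where control levels were at or near their lowest.

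**Figure D2:**
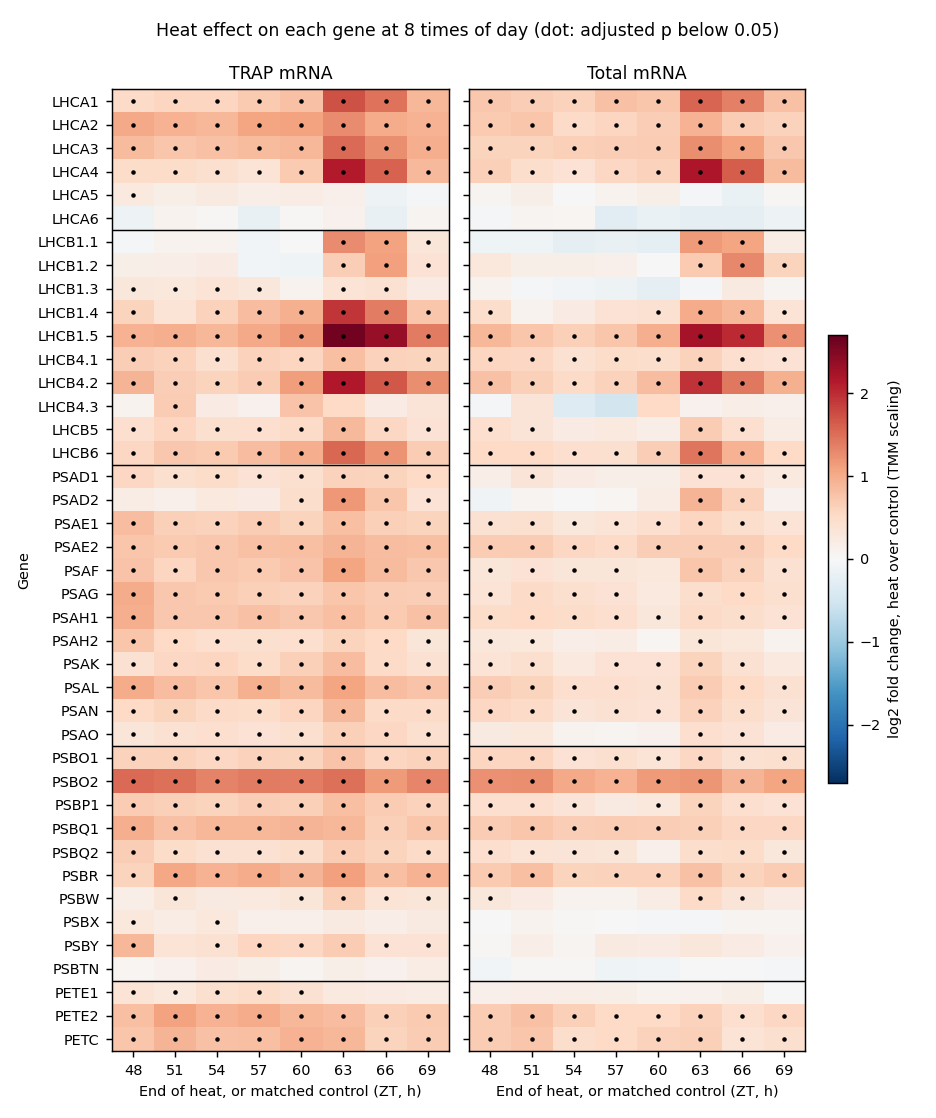
Log2 change by heat (heat over control, trimmed-mean scaling, colour) of the 41 genes in rows, grouped by complex with black lines between groups, at the 8 times in columns, for TRAP mRNA on the left and total mRNA on the right; dots mark adjusted p below 0.05. LHCB1.5, LHCA4 and LHCB4.2 are darkest at ZT63 and ZT66, and PSBO2 is dark at all times; with total counts as the only scaling 8 genes rise in TRAP and 7 in total mRNA at ZT63, and 0 or 1 at most other times.

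LHCB1.5 at ZT63 had 3249, 3087 and 3313 scaled CPM in heated and 497, 516 and 567 in control TRAP libraries. In total mRNA it had 1722, 1553 and 2044 in heated and 336, 378 and 409 in control libraries. The groups lay far apart, and the log2 change was 2.61 in TRAP and 2.24 in total mRNA, against 0.90 and 0.65 at ZT54 (adjusted p of the time dependence 4.21e-15 in TRAP and 3.42e-13 in total mRNA). At ZT54, near its daily crest, the gene had 14637, 13496 and 12300 scaled CPM in heated and 7873, 7727 and 6084 in control TRAP libraries. An annotated antisense non-coding RNA gene overlaps LHCB1.5 over 1045 bases, and since the strand setting of the counting is not given in the sources used here, reads of the 2 genes cannot be told apart.

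LHCA4 at ZT63 had 1715, 1645 and 1366 scaled CPM in heated and 374, 338 and 353 in control TRAP libraries, and 1436, 1308 and 1218 in heated and 298, 248 and 322 in control total libraries. Its log2 change was 2.15 in TRAP and 2.19 in total mRNA at ZT63, against 0.43 and 0.38 at ZT54 (adjusted p 1.03e-13 and 1.32e-15). LHCB4.2 at ZT63 had 1401, 1218 and 1174 in heated and 277, 242 and 321 in control TRAP libraries, and 699, 582 and 525 in heated and 156, 129 and 186 in control total libraries. Its change was 2.17 and 1.94 there and 0.59 and 0.51 at ZT54 (adjusted p 6.64e-12 and 3.57e-10). For both genes the heated and control libraries at ZT63 did not overlap in either kind of mRNA. LHCA1 followed, with 1678, 1567 and 1725 in heated and 491, 487 and 525 in control TRAP libraries at ZT63 (log2 change 1.73, adjusted p of the time dependence 3.54e-10).

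LHCB1.1 was called at ZT63 and ZT66 in both kinds of mRNA and otherwise at ZT69 in TRAP mRNA (0.33). Its log2 change was 1.28 at ZT63 and 1.08 at ZT66 in TRAP mRNA and 1.15 and 1.06 in total mRNA, where it lay between -0.26 and 0.20 at the other times (adjusted p of the time dependence 1.10e-08 in TRAP and 5.58e-11 in total mRNA). At ZT63 it had 618, 576 and 825 scaled CPM in heated and 291, 258 and 363 in control total libraries, which did not overlap, and at ZT54 it had 6134, 5504 and 4404 in heated and 6577, 6668 and 5640 in control libraries, which did. LHCB1.1, LHCB1.2 and LHCB1.3 share 95.6% to 96.4% of their coding bases, and reads can have been divided among them. Summed over these 3 genes, ZT63 gave 3054, 2744 and 3486 scaled CPM in heated and 2315, 2406 and 3049 in control total libraries, which overlap, and ZT66 gave 7362, 8332 and 6045 in heated and 4183, 4874 and 5293 in control libraries, which do not. In TRAP mRNA the sum was 4350, 4066 and 4347 in heated and 2660, 2627 and 3378 in control libraries at ZT63.

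The effects of the other time-dependent genes at ZT63 were 1.94 in TRAP and 1.01 in total mRNA for LHCB1.4, 1.55 and 1.44 for LHCB6 (the minor antenna protein CP24), 1.53 and 1.26 for LHCA3, 1.16 and 0.92 for PSAD2, and 0.66 and 0.72 for LHCB1.2, whose largest effect was 1.1 and 1.3 at ZT66. PSAD1, the other gene for the PSAD subunit, was not called for time dependence, with 0.62 and 0.39 at ZT63. Split by time, the test called none of the 41 genes within ZT48 to ZT57 by edgeR (0 at an unadjusted p under 0.05 in either kind of mRNA, and 3.36% of all genes called in TRAP and 1.63% in total mRNA). Within ZT60 to ZT69 it called 9 in TRAP and 7 in total mRNA (0.944% and 0.452% of all genes). DESeq2's likelihood ratio test over all 8 times called 11 in each.

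Counted at single times, 34, 32, 33, 32, 34, 35, 35 and 34 genes rose in TRAP mRNA from ZT48 to ZT69, and 28, 27, 23, 23, 22, 33, 32 and 26 in total mRNA, against 30.5, 29.7, 29.0, 27.6, 24.8, 27.2, 25.0 and 27.5% of all genes called as rising in TRAP and 29.6, 28.2, 25.9, 24.8, 23.6, 21.9, 22.4 and 21.5% in total mRNA. The rise was called at all 8 times for 28 genes in TRAP and 19 in total mRNA, and at no time for 2 and 8. The largest effect was at ZT63 for 25 genes in TRAP and 23 in total mRNA.

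Control seedlings show what these effects were added to. A 24 h rhythm was called for 40 of 41 genes in each kind of mRNA (61.8% of all genes tested in TRAP and 51.3% in total mRNA), PSBR being the exception. The median log2 amplitude of the 40 genes was 0.52 in TRAP and 0.47 in total mRNA. Over all genes of a group, the PSII antenna had the widest rhythms, with a median amplitude of 1.43 in TRAP and 1.39 in total mRNA, followed by the PSI antenna with 0.93 and 0.83, the PSI subunits with 0.50 and 0.45, the PSII subunits with 0.36 and 0.33 and the carriers with 0.31 and 0.38. LHCB1.2 (2.08 and 2.00), LHCB1.1 (1.95 and 1.88) and LHCB1.4 (1.74 and 1.61) led. Of the 40 genes, 31 crested 0.203 to 6.05 h after ZT48 on the 24 h cycle in TRAP and 0.205 to 6.84 h in total mRNA. The other 9 crested at 19.0 to 23.8 h in TRAP and 18.7 to 23.9 h in total mRNA, and in both they were LHCA5, LHCA6, LHCB4.3, PSBO2, PSBQ1, PSBTN, PETE1, PETE2 and PETC. The lowest control group was at ZT63 for 31 genes in TRAP and 32 in total mRNA.

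**Figure D3:**
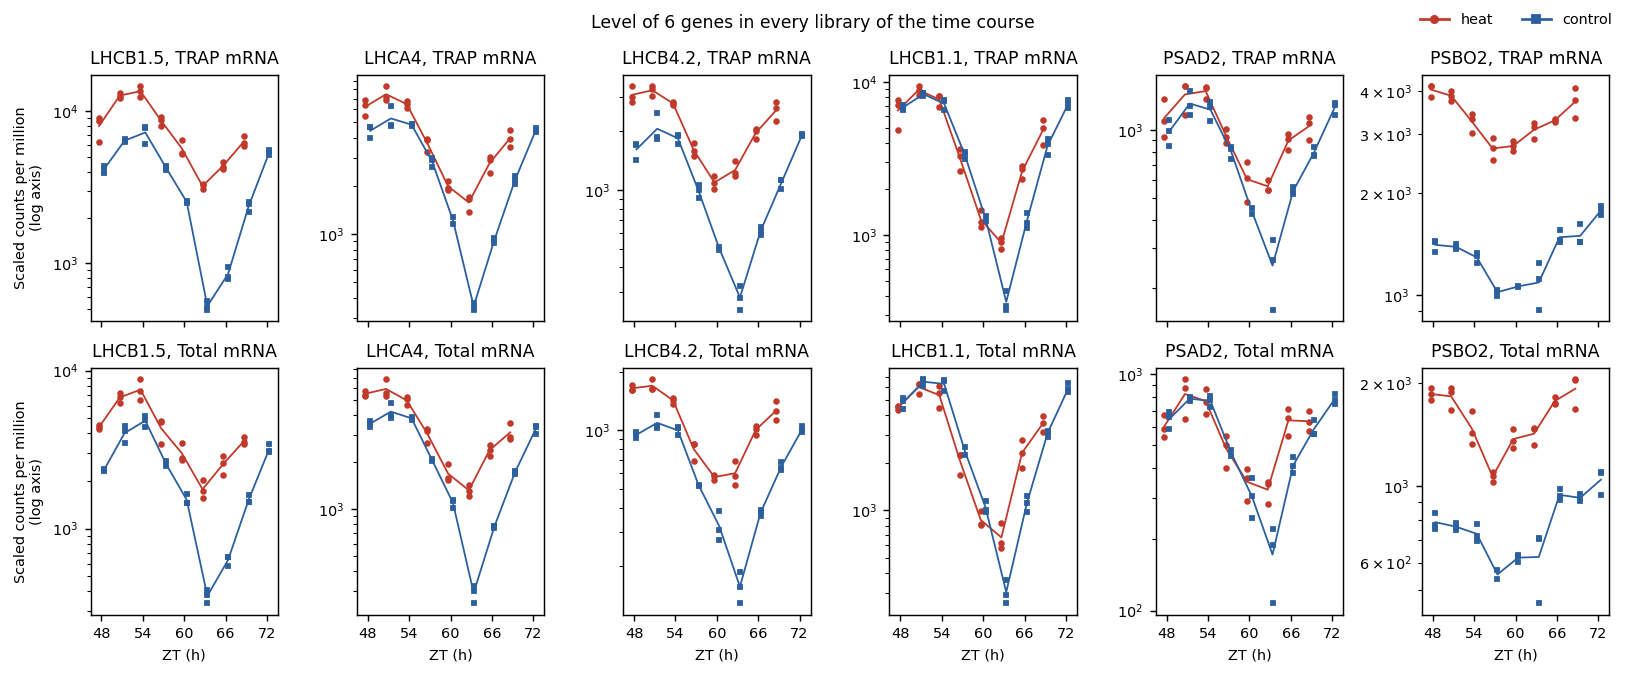
Scaled CPM (log axis) of 6 genes against zeitgeber time in hours, TRAP mRNA above and total mRNA below, heat in red and control in blue; points are libraries and lines join group means. The lines of LHCB1.5, LHCA4 and LHCB4.2 part most at ZT63, those of LHCB1.1 cross during the day and part at ZT63 and ZT66, and those of PSBO2 stay apart at all times under this scaling.

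Heated seedlings had a shallower daily range. The ratio of the highest to the lowest group mean over ZT48 to ZT69 was smaller in heated than in control seedlings for 35 of 41 genes in TRAP and 35 in total mRNA. Its median over the PSII antenna genes was 4.04 in heated and 8.23 in control TRAP libraries, and 4.01 and 7.91 in total libraries. For LHCA4 it was 4.73 in heated and 14.8 in control TRAP libraries, and for LHCB1.1 it was 10.0 and 22.9. For PSBO2 it was 1.49 and 1.47. These ratios are free of the scale of a gene and are given without a test.

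Ribosome-bound mRNA responded more than total mRNA. In 1 fit over both kinds of library, the heat effect of 32 of the 41 genes was larger in TRAP than in total mRNA (35.6% of all genes tested were called, 21.5% as larger in TRAP), with a median difference of 0.24 log2 over the 41 genes against 0.06 over all genes tested. The called genes were 2 of 6 PSI antenna, 7 of 10 PSII antenna, 11 of 12 PSI subunits, 9 of 10 PSII subunits and 3 of 3 carriers. The difference was largest for LHCB1.4 (0.47 ± 0.089), PSBY (0.38 ± 0.079) and PSAL (0.37 ± 0.053), and smallest among called genes for PSBO1 (0.17), LHCB1.1 (0.17) and PSAK (0.18). The call of LHCB1.1 was lost with relative-log-expression scaling, with DESeq2, without the filter and with any replicate number left out, and that of PSAK without the filter and without replicate 1 or 3. That of PSBO1 was lost without replicate 1 or 3. This count depends on how the libraries are scaled: it was 21 with plastid and mitochondrial genes left out, and 0 with total counts as the only scaling, where these 3 smallest differences turned negative. Plastid and mitochondrial genes took a median of 0.261% of counts in heated and 0.314% in control TRAP libraries, against 25.8% in heated and 28.0% in control total libraries.

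In control seedlings, 36 of the 41 genes had a higher scaled share in TRAP than in total mRNA (76.2% of all genes tested were called, 38.5% as higher), with a median of 0.24 log2 against 0.01 over all genes. PSAL (0.72), PSAG (0.68) and LHCB4.1 (0.64) were highest, and LHCA4 (0.11), LHCA6 (0.11) and LHCB1.1 (0.13) were the lowest called, calls that all 3 lost with relative-log-expression scaling and with DESeq2. PSAG overlaps a gene on the other strand over 479 bases, and LHCB6 a non-coding RNA gene over 358 bases.

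Genes that encode the same subunit did not respond alike. Ratios within a library do not depend on the scaling, and 8 pairs were compared in each kind of mRNA with a two-sided permutation test of labels within each time (100000 resamples, adjusted over 16 tests). The PSBO1 to PSBO2 ratio fell by 0.76 on the log2 scale in TRAP and by 0.62 in total mRNA, with heated below control at 8 of 8 times, so PSBO2 took a larger part of the pair under heat. The LHCB4.1 to LHCB4.2 ratio fell by 0.52 and 0.47, the PETE1 to PETE2 ratio by 0.54 and 0.48, and the LHCB4.3 to LHCB4.1 ratio by 0.23 and 0.42. The PSAE1 to PSAE2 ratio fell by 0.11 and 0.19. The PSBQ1 to PSBQ2 ratio rose by 0.31 and 0.29, and the PSAH1 to PSAH2 ratio by 0.27 and 0.25. All 14 of these had an adjusted permutation p of 0.0174 or less, and 11 had the smallest that the permutations can give (adjusted p = 1.45e-05). In TRAP mRNA the calls of LHCB4.3 to LHCB4.1 (-0.19) and PSAE1 to PSAE2 (-0.10) were lost without replicate 1. That of LHCB4.3 to LHCB4.1 was also lost without replicate 2 (-0.17), and that of PSAE1 to PSAE2 without replicate 3 (-0.069). LHCB4.3 was at low levels, with a lowest group mean of 2.48 scaled CPM in heated total libraries. The PSAD1 to PSAD2 ratio did not pass (0.06 and 0.03, adjusted permutation p = 0.372 and 0.654). In TRAP mRNA it was 0.37 at ZT48 and -0.61 at ZT63, so its sign differed between these times. Reads of such pairs can be divided in counting, and PSAH1 and PSAE1 overlap other annotated genes.

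**Figure D4:**
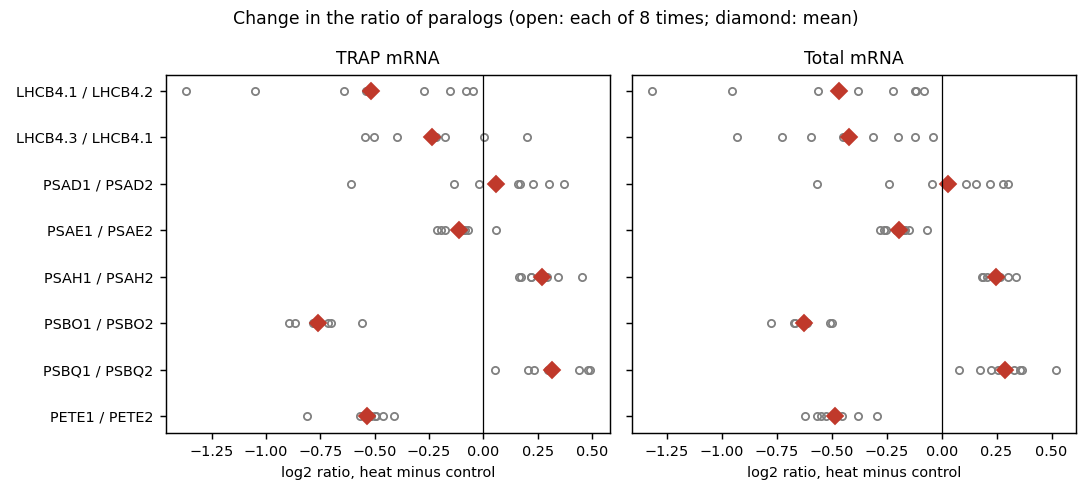
Heat minus control of the log2 ratio of 8 pairs of genes for the same subunit (horizontal axis), as open circles for each of the 8 times and a red diamond for their mean, TRAP mRNA on the left and total mRNA on the right. The PSBO1 to PSBO2 ratio lies below 0 at all times, and the LHCB4.1 to LHCB4.2 ratio is lowest at ZT63, at -1.37 in TRAP and -1.32 in total mRNA.

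After the return to 22 °C the direction turned under trimmed-mean scaling. At 0 h, 23 of the 41 genes were above control in TRAP mRNA and 13 in total mRNA (49.9% and 46.1% of all genes tested were called, 24.6% and 22.9% as higher). With total counts as the only scaling, 1 and 0 were higher at 0 h. Scaling factors of heated TRAP libraries were 0.550 to 0.580 at 0 h and 1.09 to 1.13 at 1 h. Those of TRAP controls were 1.02 to 1.05 and 0.978 to 1.04. As a plain share of counts, the 41 genes had medians below control at both times. In TRAP mRNA these were 12.7% in heated and 16.7% in control libraries at 0 h, and 13.6% and 17.3% at 1 h. In total mRNA they were 7.9% and 10.8%, then 8.6% and 10.7%. At 1 h 30 were lower in TRAP and 12 in total mRNA (24.6% and 19.4% called, 12.6% and 9.64% as lower), with median log2 changes of -0.52 and -0.34 over the 41 genes. At 6 h, 13 were lower in TRAP and 14 in total mRNA, where LHCB4.3 was higher (5.39% and 6.32% called, 3.37% and 4.04% as lower, and 2.28% as higher in total mRNA). A change of the effect over the 4 times was called for 37 genes in TRAP and 27 in total mRNA, against 51% and 41.9% of all genes tested. The 0 h sample repeats the ZT54 treatment of the time course with other libraries: there 33 genes rose in TRAP and 23 in total mRNA, and all 23 and 13 that rose at 0 h were among them. Without scaling factors, HSP101 was lower in heated libraries at 0 h than in those of the time course at ZT54. It had 3864 to 4642 against 7447 to 9181 CPM in TRAP, and 1473 to 2100 against 2806 to 3970 CPM in total mRNA. The part of this difference in the counts of genes was not tested.

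At 1 h the lowest calls in TRAP mRNA were LHCA5 (-0.92 ± 0.16), PSBP1 (-0.73 ± 0.11) and LHCB5 (-0.72 ± 0.11, the minor antenna protein CP26), and those nearest 0 were PETE1 (-0.30), LHCA3 (-0.42) and PSAK (-0.45). PSBP1 had 3463, 3537 and 3285 scaled CPM in heated and 5532, 5646 and 5916 in control TRAP libraries. These did not overlap. In total mRNA the gene had 2480, 2336 and 2046 in heated and 2592, 2683 and 3251 in control libraries. Those did not overlap either, but the gene was not called. In total mRNA LHCB1.3 (-0.64), PSBTN (-0.64) and LHCA5 (-0.58) were lowest, and PSAH2 (-0.38), PSAL (-0.39) and PSAG (-0.41) nearest 0. The counts at 1 h were 3 to 11 in total and 7 to 32 in TRAP mRNA when replicates of 1 number were left out in turn.

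At 3 h none of the 41 genes was called in total mRNA by edgeR (12 at an unadjusted p under 0.05, and none by DESeq2), where 1.12% of all genes were. In TRAP mRNA 10 were lower (6.46% of all genes called, 4.21% as lower), led by PSBX (-0.95), PSAH2 (-0.90) and PSAG (-0.74), with LHCB5 (-0.36), PSBP1 (-0.36) and LHCB1.4 (-0.51) nearest 0. Some of these values rest on 1 control library. PSBX had 1318, 1260 and 1227 scaled CPM in heated and 4326, 1378 and 1644 in control TRAP libraries, and PSAG had 1095, 1121 and 1186 in heated and 3078, 1244 and 1343 in control libraries, so control library 1 stood above the others. Without it none of the 41 genes was called, and PSBX, PSAH2 and PSAG were at -0.25, -0.17 and -0.19. LHCB5, PSBP1 and LHCB1.4 kept their size without it, at -0.36, -0.34 and -0.51, with adjusted p of 0.0742, 0.0799 and 0.0869 by edgeR.

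At 6 h antenna genes made up 11 of the 13 lowered genes in TRAP and 11 of the 14 in total mRNA, the others being PSAD2 and PSAO in both and PETE1 in total mRNA. LHCB1.1 had 1092, 1143 and 1216 scaled CPM in heated and 3587, 4017 and 3100 in control TRAP libraries, and 838, 867 and 943 in heated and 3197, 3761 and 2467 in control total libraries. The groups lay well apart, with log2 changes of -1.63 ± 0.13 in TRAP and -1.83 ± 0.17 in total mRNA (edgeR adjusted p 2.28e-08 and 5.23e-09). LHCB1.2 was at -1.67 and -1.60, LHCA4 at -1.30 and -1.24, and LHCA1 at -1.29 and -1.27. LHCA4 had 1126, 1135 and 1246 in heated and 2405, 3832 and 2371 in control TRAP libraries, all controls above all heated libraries with control library 2 the highest. PSAO, LHCB1.3 and LHCA3 (-0.47, -0.56 and -0.61) were nearest 0 among the TRAP calls, and PSAO and LHCB5 (-0.52 and -0.54) among the total ones. The PSAO calls were lost with any replicate number left out in both kinds of mRNA. In TRAP mRNA the call of LHCB1.3 was lost without replicate 1 or 3, and that of LHCA3 without replicate 2 or 3. The LHCB5 call in total mRNA was lost without replicate 1 or 2. LHCB4.3, at low counts, had 8.73, 6.11 and 7.50 in heated and 3.33, 3.87 and 3.15 in control total libraries (log2 change 1.09 ± 0.28). Its call was lost without replicate 1 (0.94) and without replicate 3 (1.03). No PSII subunit passed the test at 6 h in either kind of mRNA. Of the root markers, 1 of 5 tested in TRAP and 1 of 9 in total mRNA were lower at 6 h, with medians of -1.26 and -0.53, and their part in the antenna result was not tested.

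All 10 genes with a time-dependent heat effect were among those lowered at 6 h, which is 100% of the 10 and 76.9% of the 13 lowered genes in TRAP and 71.4% of the 14 in total mRNA. Median log2 changes at 6 h were -1.20 for these 10 and -0.20 for the other 31 genes in TRAP mRNA, and -1.13 and -0.23 in total mRNA. The 2 experiments share no libraries.

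**Figure D5:**
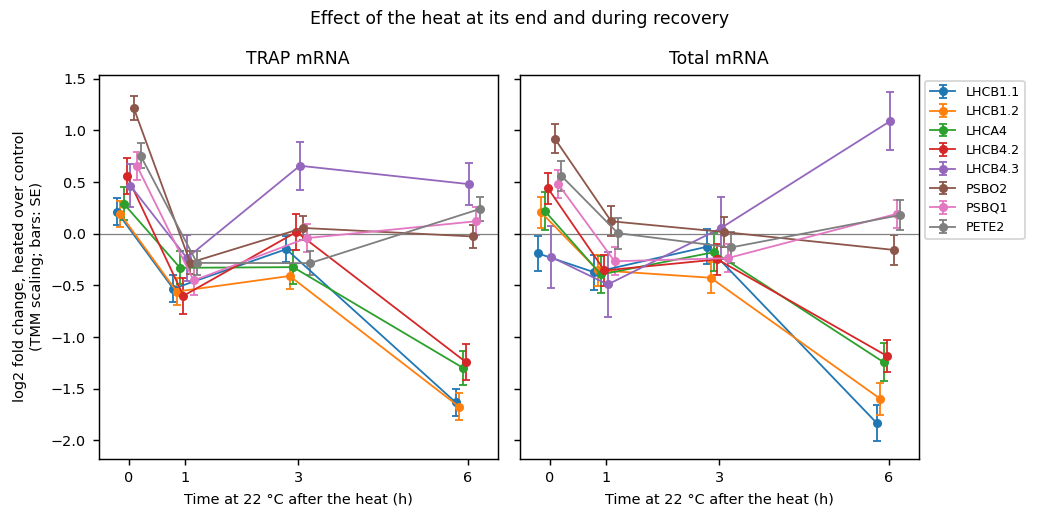
Log2 change of heated over control seedlings (vertical axis, trimmed-mean scaling, bars are SE) of 8 genes at 0, 1, 3 and 6 h after the return to 22 °C (horizontal axis), TRAP mRNA on the left and total mRNA on the right. LHCB1.1, LHCB1.2, LHCA4 and LHCB4.2 end between -1.18 and -1.83 at 6 h and PSBO2 near 0; with total counts as the only scaling 1 of the 41 genes is higher at 0 h in TRAP and 0 in total mRNA.

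The controls of the 2 experiments differed in level for some genes. LHCB1.1 was compared without scaling factors at ZT60, the 6 h time of the recovery experiment. It had 3963, 4575 and 3455 CPM in TRAP controls of the recovery experiment and 2131 and 1923 CPM in those of the time course. In total controls it had 3765, 4131 and 2789 against 1624, 1496 and 1774 CPM. These did not overlap. At ZT60 the median ratio of recovery over time-course controls was 1.62 in TRAP and 1.36 in total mRNA for the 10 genes with a time-dependent heat effect. For the other 31 it was 0.957 and 0.896. For the 10 genes it was 0.936 and 0.915 at ZT54 and 1.12 and 1.33 at ZT57, and for the other 31 it was 1.12 and 1.15 at ZT57. The experiments were normalised apart, and the part of the control levels in the lowered antenna genes at 6 h was not tested.

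No recovery effect differed between TRAP and total mRNA in the joint fit by edgeR or DESeq2 at 0, 1, 3 or 6 h (1.99%, 0.014%, 0% and 0% of all genes called by edgeR; 1, 4, 5 and 0 of the 41 at an unadjusted p under 0.05).

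Among other genes of the photosynthetic apparatus, listed by function, some lists rose nearly as a whole, like the 41 genes, and others were mixed. Of 20 further antenna, electron transport, ATP synthase and regulatory genes, 18 rose and 1 fell in TRAP mRNA and 17 rose and 2 fell in total mRNA over the 8 times, with FD1, a leaf ferredoxin that takes electrons from PSI, at 3.30 and 2.82 and PGRL1B, of cyclic electron flow, at 1.29 and 1.01, while the PSII antenna gene LHCB2.3 fell, at -1.28 and -1.33. Of 14 genes for antenna targeting and photosystem assembly, 8 rose and 2 fell in TRAP and 5 rose and 6 fell in total mRNA. GLK1 (listed as GPRI1), a transcription factor known to activate antenna genes, fell by 1.33 and 1.46 on the log2 scale, and HCF136, a PSII assembly factor, rose by 0.90 and 0.97. Of 12 genes of the NDH complex, which joins PSI, 6 rose and 2 fell in TRAP and 5 rose and 5 fell in total mRNA. Under trimmed-mean scaling the plastid-encoded core genes of both photosystems rose, 6 of 6 tested in TRAP and 7 of 7 in total mRNA. Their medians were 1.03 and 1.12. These libraries were enriched for polyadenylated RNA, which plastid mRNAs mostly are not. Plastid and mitochondrial genes took a median of 0.261% of counts in heated TRAP libraries. Whether such reads were ribosome-bound or carried over was not tested. The counts for these lists are not given under total-count scaling. At 6 h of recovery LHCB2.1, LHCB2.2 and LHCB2.3 were lower, at -2.24, -2.15 and -2.07 in TRAP and at -2.44, -2.34 and -2.28 in total mRNA, which is further below 0 than any of the 41 genes. The GLK1 relative GLK2 was lower, at -0.81 in TRAP and -0.97 in total mRNA, while the NDH gene NdhN was higher, at 0.72 and 0.76.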

How the data were processed

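Polyadenylated total mRNA and ribosome-bound mRNA were sequenced after 12 PCR cycles, per the labels' protocols. Reads were handled with cutadapt, FastQC and HISAT2 2.2.0 against TAIR10, per the submitters' processing notes; no source used here gives the counter, annotation or strand setting. The deposited values are raw counts per gene, made by the authors, and were used as deposited. Sequences and coordinates came from RefSeq's TAIR10.1.

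Genes passing edgeR's filterByExpr, with 10 as minimum count and 15 as minimum total, were scaled by trimmed means (TMM) and tested with edgeR 4.0.16 (robust quasi-likelihood), each kind of mRNA and each experiment in its own fit of group means, and both kinds in 1 fit for TRAP minus total. A call is a Benjamini-Hochberg adjusted p below 0.05 over all genes tested. Rhythms were fitted with a cosine and a sine of 24 h. Paralog ratios added 0.5 to each count. Alternatives were relative-log-expression scaling, total-count scaling, DESeq2 1.42.0, no filter, a replicate block, each replicate number left out, no organelle genes, single libraries left out and time windows. Total-count scaling and the fit without TRAP control library 1 at ZT57 were chosen after seeing the data. Scripts were tested on simulated counts. R 4.3.3, Python 3.11.15, pandas 2.3.3, numpy 2.4.6 and matplotlib 3.10.9 were used.

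The 41 genes and the 7 other gene lists were chosen with earlier results of these data known. Values are given for the 3 highest and 3 lowest called genes of the mean heat effect, of TRAP minus total and of 1, 3 and 6 h of recovery, the 4 genes with the smallest p of time dependence, the 3 widest rhythms and all members of the paralog pairs. No pair of libraries had identical counts. The lists were other electron transport and ATP synthase genes, antenna targeting and assembly, the NDH complex, the plastid-encoded core, root markers, a heat treatment check (HSP101, HSP21 and HSP17.6II, all of which rose) and RPL18 of the tagged protein's family, which rose by 0.83 in TRAP and by 0.38 in total mRNA on the log2 scale.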

Additional observations from a re-analysis of the deposited data

Results flagged for a closer look

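The heat effect of 10 of the 41 genes in TRAP mRNA and of 10 in total mRNA differed between times of day in the edgeR test of equal effects. The adjusted p was 4.21e-15 for LHCB1.5, 1.03e-13 for LHCA4, 6.64e-12 for LHCB4.2 and 3.54e-10 for LHCA1 in TRAP mRNA. In total mRNA it was 1.32e-15 for LHCA4, 3.42e-13 for LHCB1.5, 5.58e-11 for LHCB1.1 and 3.57e-10 for LHCB4.2.

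The effect of the earlier heat differed between hours of recovery for 37 genes in TRAP and 27 in total mRNA, by the edgeR test of equal effects at 0, 1, 3 and 6 h.

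The heat effect differed between TRAP and total mRNA for 32 genes, by the interaction term of the joint edgeR fit. As TRAP minus total on the log2 scale it was 0.47 for LHCB1.4, 0.38 for PSBY, 0.37 for PSAL, 0.18 for PSAK, 0.17 for LHCB1.1 and 0.17 for PSBO1. No cause was tested for any of these differences.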

How the results depend on the processing

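Directions against control rest on the scaling. With total counts as the only scaling, the mean heat effect was up for 2 and down for 38 genes in TRAP mRNA, and up for 2 and down for 36 in total mRNA. Genes up from ZT48 to ZT69 then numbered 1, 1, 0, 1, 1, 8, 4 and 1 in TRAP and 0, 0, 0, 0, 0, 7, 5 and 0 in total mRNA. At 0 h of recovery 1 was up in TRAP and 0 in total mRNA, 20 TRAP genes varied over recovery, and none had a larger heat effect in TRAP than in total mRNA (21 without organelle genes). Mean effects that turned were -0.822 for PETE1 and -0.78 for PSBY in total mRNA and -0.037 for LHCB4.2, -1.05 for LHCA5, -1.04 for PSBTN and -0.95 for PSBX in TRAP mRNA. TRAP minus total turned to -0.069 for PSBO1, -0.072 for LHCB1.1 and -0.062 for PSAK.

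Within ZT48 to ZT57 the heat effect varied with time for 0 genes in either mRNA. Genes lowered in TRAP mRNA at 3 h numbered 17 with DESeq2, 6 without the filter, 6 with the replicate block, 5 with total-count scaling and 0 without control library 1 at ZT57. Same-numbered heated and control libraries of the same kind of mRNA did not deviate together, so the block follows no known pairing there. Whether same-numbered TRAP and total libraries deviated together was not checked. The joint fit treated them as independent.

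With replicates of 1 number left out in turn, genes raised numbered 19 to 32 at ZT66, 16 to 26 at ZT69 and 3 to 13 at 0 h in total mRNA, and 13 to 23 at 0 h in TRAP mRNA. Genes lowered over all times numbered 0 to 2 in total mRNA. The heat effect varied with time for 6 to 10 genes in TRAP and 5 to 8 in total mRNA, and was larger in TRAP for 17 to 31. Genes lowered at 1, 3 and 6 h numbered 7 to 32, 0 to 9 and 7 to 11 in TRAP and 3 to 11, 0 to 2 and 6 to 13 in total mRNA, and 24 to 36 and 11 to 19 varied over recovery. Paralog ratios in TRAP mRNA were -0.34 to -0.17 for LHCB4.3 to LHCB4.1, -0.16 to -0.069 for PSAE1 to PSAE2 and -0.0076 to 0.10 for PSAD1 to PSAD2, the last -0.013 to 0.047 in total mRNA. It was negative without replicate 3. These fits have fewer samples, and for some lost calls the log2 change shrank too (PSBX at 3 h in TRAP mRNA was at -0.28 without replicate 1). The replicate block changed no other count by over 1.5 times.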
